A study of Mus musculus with 35 samples.

Results

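Sham-operated hearts in which cardiomyocytes carried a deletion of Irs1 (IRS1KO) were set against sham-operated hearts in which they carried a deletion of Irs2 (IRS2KO), over all genes measured. The comparison used the 6 IRS1KO sham and the 6 IRS2KO sham libraries, 12 of the 35 libraries of the study, chosen by their genotype and surgery labels with no measured value involved. The study sequenced messenger RNA of the heart apex in mice 6 weeks old, on day 3 after a tie had narrowed the aorta (transaortic constriction, TAC) or after a sham operation. IRS1KO mice carried the alphaMHC-Cre transgene with IRS1-flox, IRS2KO mice carried the same Cre with IRS2-flox, and the animals called WT here carried IRS2-flox without Cre. All were of mixed C57Bl/6/FVB background. The 6 WT sham libraries are given as a further level, and 6 IRS1KO TAC and 6 IRS2KO TAC libraries hold the same pair of genotypes under pressure load. Because the alpha-myosin heavy chain promoter drives Cre in cardiomyocytes, the other cells of the heart should by this design keep both genes. No library had IRS1-flox without Cre or Cre alone, so the deleted gene and the line that carries it cannot be told apart. Whether the libraries of a group are separate mice is not given in the labels, and p-values therefore measure the spread between libraries, which may be technical.

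IRS1 and IRS2 are docking proteins without enzyme activity of their own. The activated insulin receptor and IGF1 receptor phosphorylate them on tyrosine, and PI3 kinase then binds them and activates AKT, which promotes glucose uptake and protein synthesis and keeps FoxO transcription factors out of the nucleus. Cardiomyocytes express both proteins, and the heart uses this pathway in growth after birth and in its choice of fuel.

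Each of the 12 sham libraries held 11742562 to 13746724 reads assigned to genes. Values are normalized counts, that is reads divided by 1 factor per library. Of 27012 genes, 13695 had a mean of at least 10 over all 35 libraries and were tested. In the first principal component of the 18 sham libraries, which held 31.1% of the variance, IRS1KO libraries lay between -31.74 and -27.93, IRS2KO libraries between 13.29 and 18.98 and WT libraries between 11.01 and 15.22. WT and IRS2KO animals both carried IRS2-flox. Mitochondrial transcripts took 26.4% to 29.8% of reads in IRS1KO sham and 29.6% to 31.3% in IRS2KO sham libraries. Ventricular muscle was present at like levels: Myh6, the main myosin heavy chain of the adult mouse heart, averaged 381850 normalized counts in IRS1KO and 384660 in IRS2KO sham hearts, and none of 22 cardiomyocyte structural genes passed the threshold used here, a limma adjusted p under 0.05 (1 did at an unadjusted p under 0.05, 0 by edgeR or DESeq2). In bulk tissue, fewer cells of a type and less RNA per cell cannot be told apart, which holds for every result here.

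The targeted genes were read first. Irs1 (chr1:82233101-82291416 in GRCm38, minus strand) had 0, 35.8, 26.9, 43.8, 29.4 and 19.7 normalized counts in the 6 IRS1KO sham libraries, against 236, 254, 231, 302, 215 and 225 in the IRS2KO sham libraries. Every IRS1KO library lay far below every IRS2KO library, and WT sham libraries ranged from 172 to 310. The log2 difference, IRS1KO minus IRS2KO on the log2(value + 1) scale, was -3.80 (SE 0.68, limma adjusted p = 0.000257). Irs2 (chr8:10984681-11008458, minus strand) had 225, 235, 335, 504, 314 and 289 in IRS1KO sham libraries, against 138, 121, 127, 98.1, 136 and 120 in IRS2KO sham libraries. These groups did not overlap either, with a log2 difference of 1.31 (SE 0.34, limma adjusted p = 0.0125). The WT sham libraries spread over both groups for Irs2, from 93.0 through a median of 163 to 564 in replicate 2. Both loci overlap another gene on the opposite strand, and reads outside the floxed part of each gene and reads from other cell types count toward these values. In replicate 1 of IRS1KO sham and of IRS1KO TAC, Irs1 was at 0, so no read from any cell type was counted there. Why was not tested.

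**Figure D1:**
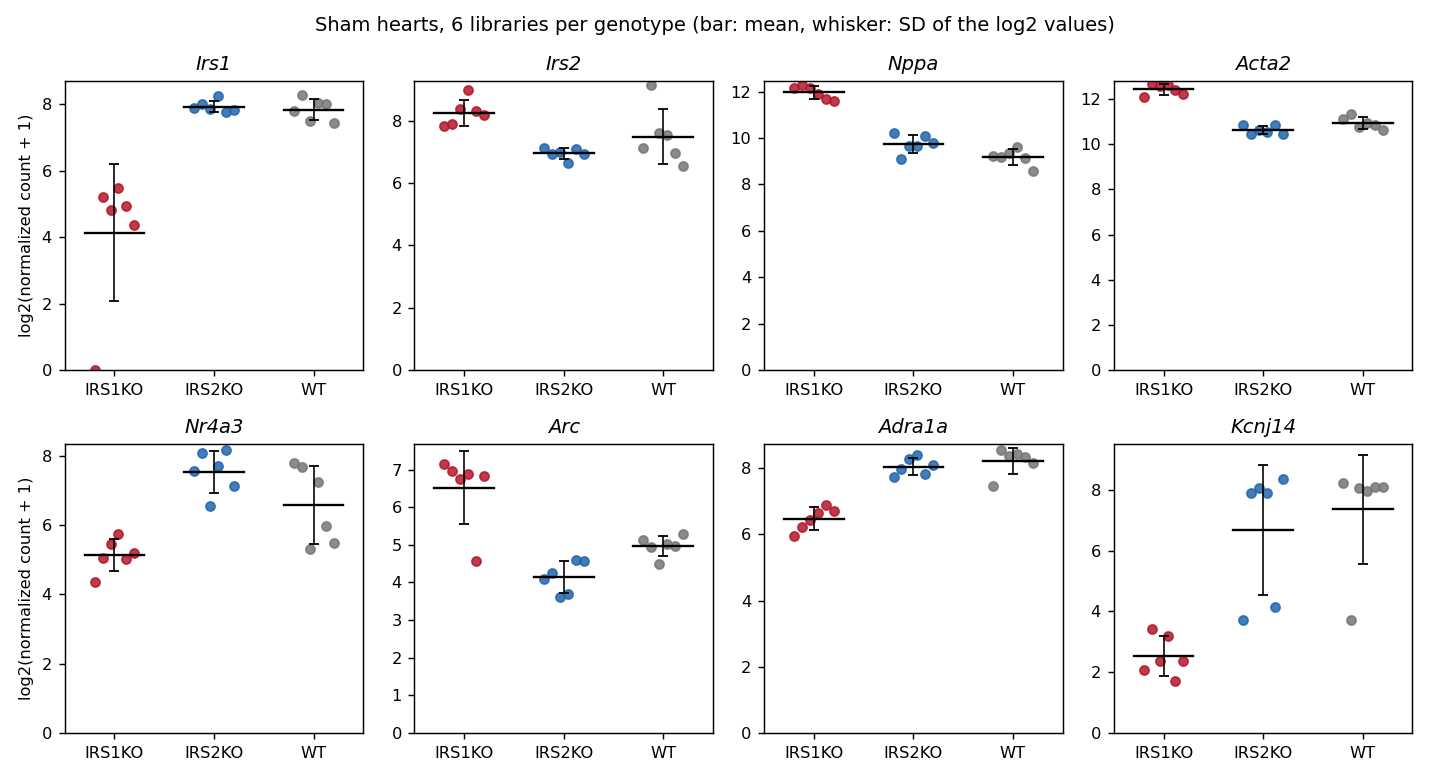
Normalized counts of 8 genes in sham hearts, as log2(normalized count + 1) on the y axis, with 1 point per library for IRS1KO, IRS2KO and WT (6 libraries each); the bar is the mean and the whisker the SD of the log2 values. Irs1, Nr4a3 and Adra1a lay lower and Nppa and Acta2 higher in all 6 IRS1KO libraries than in any IRS2KO library, while Arc was high in 5 of the 6 IRS1KO libraries and Kcnj14 was split within the IRS2KO group.

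Across the heart transcriptome 1137 of 13695 genes passed the threshold (8.3%). Of these, 502 were higher in IRS1KO than in IRS2KO sham hearts (3.67% of genes tested) and 635 were lower (4.64%). Most differences were modest, with a median absolute log2 difference of 0.54, and 238 called genes differed by at least 2-fold, 119 in each direction. In 681 of the called genes (59.9%) no IRS1KO library overlapped any IRS2KO library, where 1071 of all tested genes (7.82%) had groups without overlap, 425 of them higher (3.1%) and 646 lower (4.72%). The WT sham mean lay nearer to the IRS2KO than to the IRS1KO mean for 963 called genes (84.7%), and for 62.7% of the genes that were not called. WT animals carried IRS2-flox as IRS2KO animals did, so for this nearness a shared line and the deleted gene cannot be told apart. The split into higher and lower depended on the scaling: when libraries were put on 1 common total, 780 genes were higher and 318 lower (71.0% higher, against 44.2% with the deposited scaling), and the median gene moved by 0.09 on the log2 scale. Changes smaller than that shift carry no direction of their own.

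**Figure D2:**
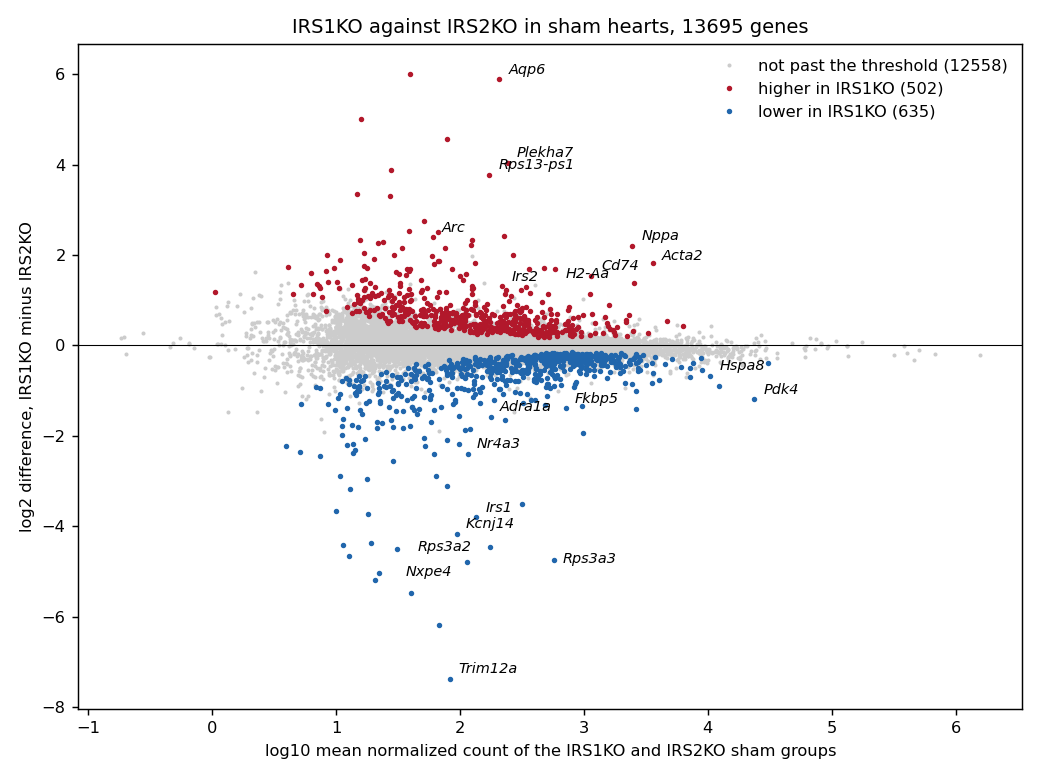
Each point is 1 of 13695 genes, with the log10 mean normalized count of the IRS1KO and IRS2KO sham groups on the x axis and the log2 difference, IRS1KO minus IRS2KO in sham hearts, on the y axis; red marks the 502 genes higher and blue the 635 genes lower in IRS1KO. Nppa and Acta2 stand out among abundant genes that were higher, and Irs1, Trim12a, Nxpe4 and the Rps3a copies lie at the bottom.

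Nppa encodes atrial natriuretic peptide, which the adult ventricle makes under load, and it was far higher in IRS1KO sham hearts. Nppa (chr4:148000722-148002079, plus strand) had 4599, 4936, 4499, 3832, 3279 and 3125 normalized counts in IRS1KO sham libraries, against 1184, 553, 810, 794, 1091 and 894 in IRS2KO sham libraries. All IRS1KO libraries lay above all IRS2KO libraries, and the WT sham libraries lay between 384 and 779. The ratio of means was 4.56, with a log2 difference of 2.21 (SE 0.22, limma adjusted p = 8.28e-09). Few other cardiac stress and fetal genes passed the threshold: 2 of 19 tested members were higher and none lower, Nppa included, where 3.67% of all genes were called higher, the median log2 difference was -0.13 against -0.0031 for all genes tested, and the 17 members that were not called lay between -0.62 and 0.57. The other called member was Ccn2, a matricellular protein, at 1564 ± 315 in IRS1KO and 699 ± 88.3 in IRS2KO sham hearts (SD, n = 6 each; limma adjusted p = 0.00797). Nppb, the B-type natriuretic peptide gene that lies next to Nppa on chromosome 4, averaged 1716 ± 544 in IRS1KO and 1274 ± 340 in IRS2KO hearts (SD, n = 6 each; limma adjusted p = 0.444). Myh7, the fetal myosin heavy chain, averaged 3342 in IRS1KO and 2217 in IRS2KO, the skeletal actin gene Acta1 4170 in IRS1KO and 5682 in IRS2KO, and the mechanosensitive Ankrd1 12145 in IRS1KO and 9098 in IRS2KO, none past the threshold (limma adjusted p = 0.436, 0.184 and 0.259). Of the atrial markers, Bmp10 was at 0 in all 12 libraries, and Myl7, Sln and Mybphl did not reach the mean of 10 needed for the test. The summed atrial list ranged from 395 to 506 normalized counts in IRS1KO, from 344 to 401 in IRS2KO and from 360 to 759 in WT sham libraries. Of its 5 tested members the lipid transfer protein gene Stard10 was higher (200 ± 43.0 in IRS1KO and 110 ± 19.8 in IRS2KO) and the nuclear receptor gene Nr2f1 lower (20.1 ± 3.79 in IRS1KO and 30.7 ± 5.66 in IRS2KO), and the call of Nr2f1 was lost in 6 of the 12 fits that left out 1 library (adjusted p up to 0.105) and at 1 common total (0.0834).

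Acta2 encodes smooth muscle alpha-actin, which vessel walls, myofibroblasts and the embryonic heart express. Acta2 (chr19:34241090-34255590, minus strand) had 4409, 6589, 6169, 6269, 5438 and 4742 normalized counts in IRS1KO sham libraries, against 1838, 1387, 1575, 1475, 1843 and 1413 in IRS2KO sham libraries. The lowest IRS1KO library was above the highest IRS2KO library and above the highest WT sham library, at 2614. The ratio of means was 3.53 and the log2 difference 1.81 (SE 0.16, limma adjusted p = 2.01e-10). Acta2 was the 1 called gene among 13 tested genes of the smooth muscle contractile list (7.69% called, against 8.3% of all genes). The median log2 difference of that list was -0.02. Myh11, the smooth muscle myosin, averaged 595 ± 116 in IRS1KO and 599 ± 81.5 in IRS2KO sham hearts (SD, n = 6 each). Cnn1, encoding calponin, averaged 14.97 in IRS1KO and 18.0 in IRS2KO, and the myosin light chain gene Myl9 407 in IRS1KO and 287 in IRS2KO (limma adjusted p = 0.798 and 0.0879). None of 10 pericyte markers was called (2 at an unadjusted p under 0.05, 0 by edgeR or DESeq2). Myl9 passed the threshold when the 12 libraries were fitted alone (adjusted p = 0.00406).

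Nr4a3 encodes NOR1, an orphan nuclear receptor that is induced within hours by hormones, calcium and cyclic AMP. To show the promoter of the most lowered early gene, the 250 bases before its start are given from RefSeq (GRCm38.p6, chr4:48045055-48045304, plus strand), 5′ to 3′, with TGACGT, the core of a cAMP response element, in capitals. The reference genome is of C57BL/6J, and the sequence in these mixed-background mice was not read.
Nr4a3: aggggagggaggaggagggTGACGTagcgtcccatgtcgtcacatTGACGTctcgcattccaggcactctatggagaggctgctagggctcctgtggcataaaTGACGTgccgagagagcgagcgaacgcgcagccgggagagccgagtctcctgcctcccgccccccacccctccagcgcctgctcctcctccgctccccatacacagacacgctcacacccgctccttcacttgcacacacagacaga
The letters TGACGT occurred at 3 places on the sense strand, and 0.152% of 32851 promoter windows of this length held 3 or more matches on either strand, while 6.47% held at least 1. A match describes the letters only.

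Nr4a3 had 19.4, 32.0, 42.5, 52.0, 31.6 and 35.2 normalized counts in IRS1KO sham libraries, against 186, 269, 93.2, 207, 283 and 138 in IRS2KO sham libraries. All IRS1KO libraries were below all IRS2KO libraries. WT sham libraries, from 38.6 through a median of 106 to 218, overlapped both groups. The log2 difference between the knockouts was -2.40 (SE 0.40, limma adjusted p = 8.11e-05), a mean of 35.4 in IRS1KO and 196 in IRS2KO hearts. Its relative Nr4a1 averaged 156 ± 84.8 in IRS1KO and 341 ± 239 in IRS2KO hearts (SD, n = 6 each; limma adjusted p = 0.325).

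Arc, an early gene best known for its part at synapses, went the other way, with 141, 124, 107, 116, 22.6 and 113 normalized counts in IRS1KO sham libraries, against 16.0, 18.1, 11.2, 11.9, 23.1 and 22.9 in IRS2KO sham libraries. IRS1KO replicate 5 lay among the IRS2KO libraries and the other 5 lay well above them. The log2 difference was 2.39 (SE 0.44, limma adjusted p = 0.000319), and 2.78 without that library. Nr4a3 and Arc were the 2 called genes among 27 tested early genes (7.41% called, against 8.3% of all genes). The median of that list was -0.10, and the other 25 lay between -1.17 and 0.56. Fos averaged 16.1 in IRS1KO and 26.5 in IRS2KO hearts, Egr1 82.6 in IRS1KO and 106 in IRS2KO, and Atf3 23.1 in IRS1KO and 57.7 in IRS2KO (limma adjusted p = 0.612, 0.551 and 0.0569). Atf3 passed without IRS2KO replicate 4 (adjusted p = 0.0351) and when the 12 libraries were fitted alone (0.00371).

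Genes of MHC class II antigen presentation formed the group with the most members higher in IRS1KO sham hearts. MHC class II molecules display peptides to helper T cells, their transcription depends on the coactivator CIITA, which interferon gamma induces, and CIITA acts through the X and Y boxes of their promoters. The promoters of 3 of these genes, shown because they hold both, are given. The 250 bases before the start run 5′ to 3′ and are from RefSeq (GRCm38.p6), H2-Aa at chr17:34287824-34288073, minus strand, H2-Eb1 at chr17:34305617-34305866, plus strand, and H2-DMb1 at chr17:34152941-34153190, plus strand. Capitals mark CTNGNAAC, letters chosen to match the X box after reading these sequences, and ATTGG, the Y box, on either strand.
H2-Aa: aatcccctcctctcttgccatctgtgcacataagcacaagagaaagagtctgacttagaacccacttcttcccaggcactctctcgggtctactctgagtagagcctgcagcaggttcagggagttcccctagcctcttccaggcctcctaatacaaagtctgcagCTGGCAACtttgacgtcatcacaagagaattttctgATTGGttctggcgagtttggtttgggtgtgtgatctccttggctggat
H2-Eb1: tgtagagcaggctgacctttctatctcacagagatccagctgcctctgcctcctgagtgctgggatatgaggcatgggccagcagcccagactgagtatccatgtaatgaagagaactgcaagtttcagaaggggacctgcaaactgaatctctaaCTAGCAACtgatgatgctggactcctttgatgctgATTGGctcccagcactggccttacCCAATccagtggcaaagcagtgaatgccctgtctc
H2-DMb1: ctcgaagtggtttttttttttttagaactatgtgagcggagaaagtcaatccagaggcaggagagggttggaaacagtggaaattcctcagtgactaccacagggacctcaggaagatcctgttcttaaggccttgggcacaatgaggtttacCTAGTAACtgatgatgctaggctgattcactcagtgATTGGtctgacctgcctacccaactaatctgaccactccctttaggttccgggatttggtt
In each of the 3 the X box letters were followed by ATTGG within 40 bases, an order found in 114 of 32851 promoter windows (0.347%). As both the letters and the promoters were chosen to match, setting them beside this share is no test of enrichment. The promoter of H2-DMa was searched as well and is not shown, since the X box letters were at 0 places in it at either annotated start. ATTGG alone occurred in 33.9% of windows and CTNGNAAC in 10.9%.

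Of 21 tested genes of the MHC and antigen presentation list, 9 were higher and none lower (42.9% called, against 3.67% of all genes called higher), and the median log2 difference was 0.58. The 12 members that were not called lay between 0.07 (H2-Q6) and 0.77 (Tap1). Without IRS1KO replicate 5, B2m, another of them, was at -0.11. H2-Aa, an alpha chain of class II, had 628, 741 and 1769 normalized counts as the lowest, median and highest of the IRS1KO sham libraries, against 146, 272 and 384 in IRS2KO sham libraries. The groups did not overlap, and IRS1KO replicate 5 was the highest library of its group for all 9 genes. Its log2 difference was 1.70 (SE 0.29, limma adjusted p = 0.000125), and 1.48 without that library.

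The other called class II genes followed the same pattern. H2-Ab1 averaged 553 ± 284 in IRS1KO and 167 ± 51.1 in IRS2KO hearts, and H2-Eb1 averaged 729 ± 361 in IRS1KO and 216 ± 58.6 in IRS2KO (SD, n = 6 each). Cd74, the invariant chain that escorts class II molecules, averaged 1699 ± 693 in IRS1KO and 565 ± 122 in IRS2KO. H2-DMb1 and H2-DMa, which load peptides, averaged 61.5 and 71.6 in IRS1KO hearts, in that order, against 17.3 and 27.5 in IRS2KO hearts. For all 5 the IRS1KO and IRS2KO libraries did not overlap. Ciita itself averaged 49.5 ± 27.7 in IRS1KO and 14.4 ± 5.26 in IRS2KO hearts (SD, n = 6 each; limma adjusted p = 0.00164), with overlapping groups. Tapbp and Psmb9, which serve class I peptide loading and cutting, rose by log2 0.33 and 0.73. Without IRS1KO replicate 5 the list had 7 higher members and a median of 0.39: the class II genes, Cd74 and Ciita remained past the threshold, while Tapbp (adjusted p = 0.0857) and Psmb9 (0.137) did not. Psmb9 also lost its call without IRS1KO replicate 3 or without IRS2KO replicate 1, 3 or 6, and Tapbp without IRS2KO replicate 3 (0.0578). The class I genes H2-K1 (log2 0.35) and B2m (0.14) were not past the threshold. H2 genes are a family of near copies, so reads may have been split between them.

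**Figure D3:**
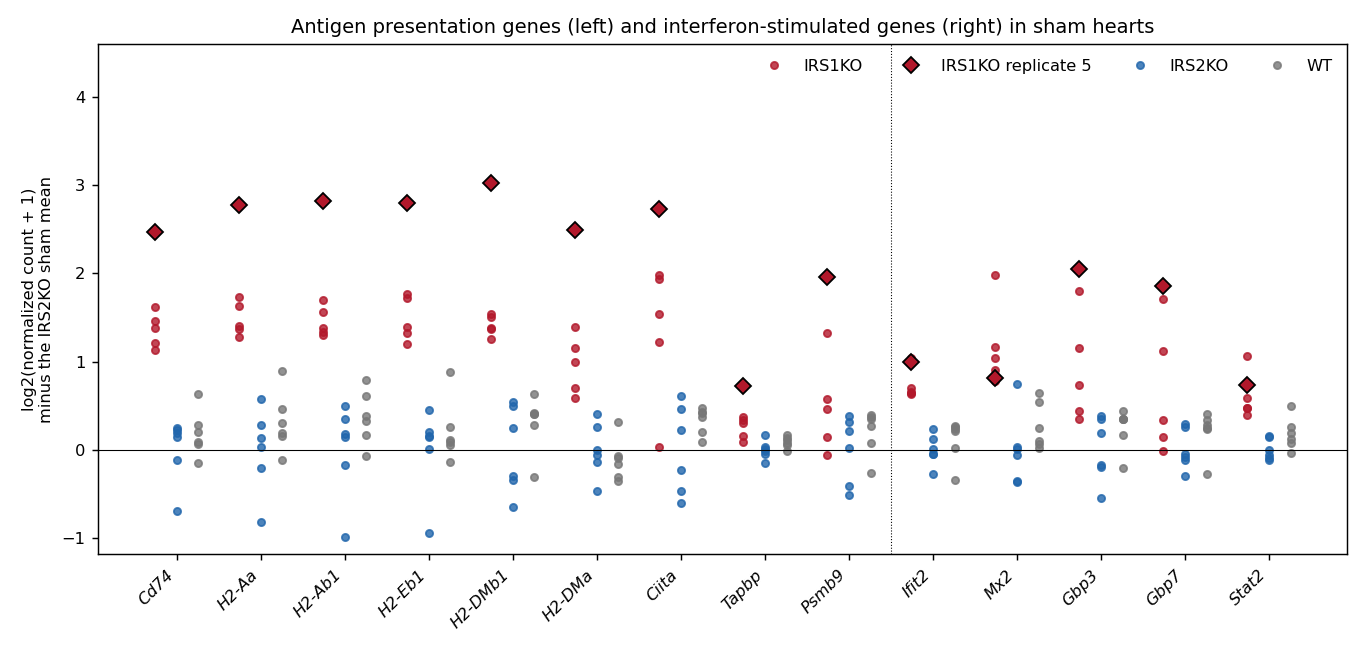
Each point is 1 sham library, with log2(normalized count + 1) minus the IRS2KO sham mean of that gene on the y axis, for 9 called antigen presentation genes and 5 called interferon-stimulated genes; colours mark IRS1KO, IRS2KO and WT, and the diamond is IRS1KO replicate 5. For Cd74 and the 5 H2 genes all IRS1KO points lie above all IRS2KO and WT points, and the diamond is the highest point of each of the 9 antigen presentation genes.

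Of 28 tested interferon-stimulated genes 5 were higher and none lower (17.9% called, against 3.67% of all genes called higher), with a median log2 difference of 0.46. They were Ifit2, which restrains viral translation (376 ± 51.2 in IRS1KO and 218 ± 26.4 in IRS2KO hearts), the antiviral GTPase gene Mx2 (36.6 ± 14.1 in IRS1KO and 16.2 ± 5.54 in IRS2KO), the transcription factor gene Stat2 (342 ± 63.4 in IRS1KO and 220 ± 18.6 in IRS2KO), and the guanylate-binding protein genes Gbp3 (363 ± 184 in IRS1KO and 157 ± 38.3 in IRS2KO) and Gbp7 (458 ± 255 in IRS1KO and 223 ± 36.1 in IRS2KO; SD, n = 6 each). Gbp7 lost its call without IRS1KO replicate 3, 4 or 5 or IRS2KO replicate 1 or 6 (adjusted p up to 0.0915), and Stat2 without IRS1KO replicate 3 (0.0572). Without IRS1KO replicate 5 the list had 4 higher members. Igtp, an interferon-induced GTPase, had 115, 207 and 1442 normalized counts as the lowest, median and highest of the IRS1KO libraries, against 88.7, 138 and 160 in IRS2KO libraries, and did not pass the threshold (limma adjusted p = 0.0718). The 23 members that were not called lay between -0.51 (Rsad2) and 1.04 (Igtp). edgeR and DESeq2 on recovered reads called 8 members of this list higher and none lower. When only the 12 libraries were fitted 8 were higher and 1 lower, and with library weights 9 were higher and 1 lower. The promoters of Gbp3 (chr3:142559794-142560043, plus strand) and Gbp7 (chr3:142530086-142530335, plus strand) are given because both hold an interferon response motif, GAAA, 2 bases of any kind and GAAA, here in capitals on the antisense strand; 2.98% of promoter windows hold it on either strand.
Gbp3: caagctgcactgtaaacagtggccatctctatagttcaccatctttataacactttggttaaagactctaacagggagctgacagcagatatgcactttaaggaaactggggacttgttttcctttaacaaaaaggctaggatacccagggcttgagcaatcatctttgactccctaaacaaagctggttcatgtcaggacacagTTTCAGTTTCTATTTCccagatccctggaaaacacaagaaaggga
Gbp7: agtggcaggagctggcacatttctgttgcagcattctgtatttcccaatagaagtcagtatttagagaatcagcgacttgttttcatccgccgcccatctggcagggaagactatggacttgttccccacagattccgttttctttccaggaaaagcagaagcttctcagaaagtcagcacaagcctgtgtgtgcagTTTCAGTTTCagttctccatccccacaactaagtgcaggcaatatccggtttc
In Gbp3 2 overlapping matches make 1 run of capitals, and the second start site of Gbp3 in the RefSeq table held no match in its window. The promoters of the other called members, Ifit2, Mx2 and Stat2, were not looked at, so the share over all windows is no test of the list.

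Markers of cells that carry class II molecules were read beside these genes. Of 21 tested macrophage and monocyte markers 1 was lower and none higher (4.76% called, against 8.3% of all genes). The summed list ranged from 5058 to 6779 normalized counts in IRS1KO and from 5755 to 7224 in IRS2KO sham libraries. The called member was Lyve1, a hyaluronan receptor of lymphatic endothelium and of a resident macrophage subset, at 145 ± 37.1 in IRS1KO and 301 ± 45.9 in IRS2KO hearts (SD, n = 6 each; limma adjusted p = 0.00873). None of 5 tested neutrophil and lymphocyte markers was called (1 at an unadjusted p under 0.05, 0 by edgeR or DESeq2), with a median log2 difference of 0.45. Their whole list of 18 summed to 171 to 237 in IRS1KO and 128 to 203 in IRS2KO libraries, and Ly6g was at 0. Ptprc, which all leukocytes express, ranged from 78.5 to 127 in IRS1KO and from 55.4 to 92.7 in IRS2KO libraries (log2 0.27, limma adjusted p = 0.632). The dendritic cell and B cell genes Itgax, Flt3, Xcr1, Cd209a, Cd79a and Ms4a1, chosen after values were seen, lay between 0 and 12.04 in all 12 libraries. Among them Cd209a had 0.969 to 4.31 normalized counts in IRS1KO libraries and was at 0 in every IRS2KO library, and Itgax had 2.15, 5.65 and 7.24 as the lowest, median and highest in IRS1KO, against 0, 3.52 and 4.49 in IRS2KO libraries (log2 0.73, limma adjusted p = 0.403). Cx3cr1, a chemokine receptor gene of the macrophage list, averaged 52.5 ± 15.9 in IRS1KO and 25.9 ± 12.5 in IRS2KO hearts (SD, n = 6 each; log2 1.08, limma adjusted p = 0.0951). It was the highest of the 20 members of that list that were not called. The lowest of them was Cd163 (log2 -0.55), and the list median was -0.01. Ifng was at 0 in every IRS2KO library and at 1.13 at most in IRS1KO libraries. The part of such cells in the class II difference was not tested. The chemokine gene Ccl6 was the 1 called member of 16 cytokine and chemokine genes (6.25% called), at 84.4 ± 26.1 in IRS1KO and 203 ± 52.6 in IRS2KO hearts.

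Within the insulin and IGF pathway 2 of 43 tested genes were higher and 4 lower in IRS1KO sham hearts, the 2 targeted genes included (14.0% called, against 8.3% of all genes), with a median log2 difference of -0.08. Besides Irs1 and Irs2, the growth factor gene Igf2 was higher at 513 ± 72.5 in IRS1KO and 330 ± 29.99 in IRS2KO hearts (SD, n = 6 each; limma adjusted p = 0.00479). The genes of 2 downstream kinases were lower: Mtor averaged 1009 in IRS1KO and 1281 in IRS2KO hearts (limma adjusted p = 0.0133), and Pdpk1, whose product phosphorylates AKT, averaged 654 in IRS1KO and 795 in IRS2KO (0.0168). Pdpk1 was not past the threshold without IRS1KO replicate 1 (adjusted p = 0.0600) or at 1 common total (0.241). The receptor genes Insr (log2 0.35, limma adjusted p = 0.137) and Igf1r (-0.07, 0.778), the PI3 kinase gene Pik3ca (-0.05, 0.807), Akt1 (-0.24, 0.217), Akt2 (0.01, 0.96) and the glucose transporter gene Slc2a4 (-0.02, 0.973) did not pass. Insr and Akt1 passed when only the 12 libraries were fitted (adjusted p = 0.00729 and 0.00464), and Insr also at 1 common total (0.00603).

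Among 22 tested FoxO factors and targets none was higher and 2 were lower, a share (9.09%) near the 8.3% of all genes: Gabarapl1, an autophagy protein of the ATG8 family, at 883 ± 35.1 in IRS1KO and 1316 ± 246 in IRS2KO hearts (SD, n = 6 each; limma adjusted p = 0.000614), and Pdk4. Pdk4, the kinase that closes pyruvate entry into mitochondria, had 18930, 15732, 11581, 9942, 18182 and 13471 normalized counts in IRS1KO sham libraries, against 41312, 27088, 33684, 29080, 36951 and 28804 in IRS2KO sham libraries. These groups did not overlap, and WT sham libraries ran from 9141 to 31400, across both. The log2 difference of Pdk4 was -1.19 (SE 0.38, limma adjusted p = 0.0427), and it was past the threshold in 2 of the 12 fits that left out 1 library and not with quantile normalization (adjusted p = 0.0812) or with no filter (0.0931). Of the autophagy and lysosome list, Bnip3l (606 in IRS1KO and 743 in IRS2KO) and Wipi1 (1486 in IRS1KO and 1824 in IRS2KO) were lower as was Gabarapl1, 3 of 21 tested with none higher (14.3% called, against 4.64% of all genes called lower). Wipi1 lost its call without IRS1KO replicate 1 or 3 or IRS2KO replicate 4 or 5, and Bnip3l (adjusted p = 0.148) and Wipi1 (0.0534) lost theirs at 1 common total.

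Glucocorticoid-responsive genes and metallothioneins had the lowest median of all lists with 10 or more tested members, at -0.43, with 4 of 15 lower and none higher (26.7% called, against 4.64% of all genes called lower), and the 11 members that were not called lay between -0.83 and -0.0095. Fkbp5, a cochaperone of the glucocorticoid receptor, had 590, 184, 635, 382, 220 and 385 normalized counts in IRS1KO sham libraries, against 1321, 472, 1099, 588, 1457 and 1236 in IRS2KO sham libraries. The groups overlapped in the 472 and 588 of IRS2KO replicates 2 and 4. The log2 difference was -1.39 (SE 0.37, limma adjusted p = 0.0148). The metal-binding Mt1 averaged 1560 ± 465 in IRS1KO and 2718 ± 539 in IRS2KO, Mt2 24.2 ± 16.3 in IRS1KO and 57.1 ± 20.5 in IRS2KO, and the iron-siderophore binder Lcn2 25.2 ± 5.31 in IRS1KO and 68.5 ± 15.1 in IRS2KO (SD, n = 6 each). Fkbp5 missed the threshold without IRS1KO replicate 2 (adjusted p = 0.0514), Mt1 without IRS1KO replicate 2 or 5 or IRS2KO replicate 1 or 5, and Lcn2 in all but 2 of the 12 such fits, those without IRS1KO or IRS2KO replicate 2. Lcn2 was not called at 1 common total either (adjusted p = 0.0709), nor were Lcn2 (0.123) and Mt2 (0.0578) by edgeR. Without IRS1KO replicate 5 the list had 2 lower members. Of 13 p53 targets 2 were lower as well (15.4% called): Cdkn1a, which encodes the cell cycle inhibitor p21, averaged 261 ± 84.1 in IRS1KO and 706 ± 322 in IRS2KO hearts (limma adjusted p = 0.00579), and the stress protein gene Trp53inp1 291 ± 49.9 in IRS1KO and 501 ± 129 in IRS2KO (0.0113).

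Few genes of energy metabolism passed the threshold, although several had knockout groups that did not overlap. No member was called by limma, edgeR or DESeq2 among 19 tricarboxylic acid cycle genes, 44 nuclear oxidative phosphorylation genes, 13 mRNAs of the mitochondrial genome and 15 regulators of mitochondrial biogenesis. At an unadjusted p under 0.05 limma counted 2, 0, 0 and 3 of them, and the coactivator gene Ppargc1a had the lowest log2 difference of the regulators, -0.95. All of these fits took their spread from all 35 libraries, TAC included, so their lack of calls is not independent evidence of no change. With only the 12 sham libraries fitted, 922 genes were higher and 1226 lower over all genes. The calls of that fit in these lists are not given here. Of 34 glucose genes 4 were lower and none higher (11.8% called, against 4.64% of all genes called lower): besides Pdk4, these were Gys1, the muscle glycogen synthase, at 1518 ± 83.6 in IRS1KO and 2101 ± 43.4 in IRS2KO hearts (SD, n = 6 each; limma adjusted p = 0.000131), the glycogen branching enzyme gene Gbe1 at 802 in IRS1KO and 967 in IRS2KO, and Gapdh at 2287 in IRS1KO and 2763 in IRS2KO. Gys1 libraries of the knockouts did not overlap. Gbe1 was not past the threshold without IRS1KO replicate 2 (adjusted p = 0.0582), nor was Gapdh without that library (0.0634) or IRS2KO replicate 1 (0.0675), and neither was called at 1 common total (0.0875 for Gbe1 and 0.19 for Gapdh) or with quantile normalization (0.0595 and 0.118). Gapdh has many processed copies in the genome. The 34 tested genes of fatty acid uptake and oxidation had a median log2 difference of -0.24, and the tricarboxylic acid cycle genes one of -0.16. In 8 of these 34 and 7 of the 19 cycle genes every IRS1KO library was below every IRS2KO library, where 4.72% of all tested genes were. The succinyl-CoA ligase subunit gene Sucla2 averaged 7206 ± 503 in IRS1KO and 9857 ± 444 in IRS2KO hearts (SD, n = 6 each; limma adjusted p = 0.0801), and Hadha, of mitochondrial fatty acid oxidation, 16445 ± 1548 in IRS1KO and 20235 ± 392 in IRS2KO (0.371). The summed cycle list ranged from 228360 to 264170 normalized counts in IRS1KO, from 262070 to 287670 in IRS2KO and from 254030 to 289930 in WT sham libraries, and the fatty acid list from 268730 to 318240 in IRS1KO, from 310840 to 333300 in IRS2KO and from 317860 to 353990 in WT sham libraries. All transcripts of the mitochondrial genome together, not the mRNAs alone, took 26.4% to 29.8% of all normalized counts in IRS1KO and 29.6% to 31.3% in IRS2KO sham libraries. Their part in these values was not tested.

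Adra1a, the alpha-1A adrenergic receptor gene, had 60.3, 92.4 and 117 normalized counts as the lowest, median and highest in IRS1KO sham libraries, against 213, 261 and 334 in IRS2KO sham libraries. The groups were far apart, and the WT sham mean was 305. The log2 difference was -1.57 (SE 0.34, limma adjusted p = 0.00252). Calcium handling and channel lists were called at about the rate of all genes (8.3%). Among 22 calcium handling genes 2 were higher (9.09% called): Casq1, the calsequestrin best known from skeletal muscle, at 178 ± 48.1 in IRS1KO and 70.0 ± 12.03 in IRS2KO hearts, and Cacnb2, a subunit of the L-type calcium channel, at 1025 ± 91.9 in IRS1KO and 778 ± 111 in IRS2KO (SD, n = 6 each). Of 25 potassium and sodium channel and coupling genes 2 were higher as well (8%). Kcna4, a channel of the transient outward current, averaged 32.1 in IRS1KO and 14.2 in IRS2KO, and Gja1, the gap junction protein connexin 43, averaged 5553 ± 1470 in IRS1KO and 3784 ± 609 in IRS2KO (limma adjusted p = 0.0109).

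Of 16 fibroblast markers 3 were lower in IRS1KO sham hearts and none higher (18.8% called, against 4.64% of all genes called lower), with a median log2 difference of -0.15. The 13 markers that were not called lay on both sides of 0, between -0.66 (Mfap4) and 0.33 (Tcf21). Pdgfra, the receptor that marks cardiac fibroblasts, averaged 485 ± 39.3 in IRS1KO and 694 ± 58.3 in IRS2KO hearts without overlap (SD, n = 6 each; limma adjusted p = 0.00023), Dpep1 481 in IRS1KO and 800 in IRS2KO, and the microfibril protein gene Mfap5 282 in IRS1KO and 420 in IRS2KO. Of 39 matrix genes 3 were lower, with elastin (Eln) at 447 ± 66.7 in IRS1KO and 730 ± 89.9 in IRS2KO, the collagen gene Col6a3 at 387 ± 55.3 in IRS1KO and 631 ± 59.3 in IRS2KO, and Timp3 at 2240 in IRS1KO and 3257 in IRS2KO, while Ccn2 was higher. This matrix share (10.3% called) was near the 8.3% of all genes. Fewer calls remained when 1 library was left out: Dpep1 missed the threshold without IRS1KO replicate 2 or 4 or IRS2KO replicate 1, Timp3 in 6 of 12 such fits and Mfap5 in 8 of 12. At 1 common total Mfap5 (adjusted p = 0.176) and Col6a3 (0.11) were not past the threshold, and with quantile normalization neither these (0.0665 and 0.0619) nor Timp3 (0.0919) were. The summed fibroblast list ranged from 23913 to 28932 in IRS1KO and from 27328 to 32889 in IRS2KO sham libraries. In the endothelial list Eng, a TGF-beta coreceptor, was the 1 called member of 16 (6.25% called, against 8.3% of all genes). It averaged 2363 in IRS1KO and 2060 in IRS2KO, and its call was lost without IRS1KO replicate 3 or 5 or IRS2KO replicate 6.

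Heat shock genes were mixed. Hspa8, the constitutive HSC70 chaperone, averaged 8110 ± 748 in IRS1KO and 12925 ± 888 in IRS2KO sham hearts without overlap (SD, n = 6 each; log2 -0.67, limma adjusted p = 1.04e-06), and the cardiac small heat shock protein gene Hspb7 averaged 26519 in IRS1KO and 34924 in IRS2KO. Hsph1 was higher (875 ± 199 in IRS1KO and 642 ± 46.0 in IRS2KO), with its call lost without IRS1KO replicate 3, 5 or 6 or IRS2KO replicate 3. These were 3 of 20 tested (15% called, against 8.3% of all genes), and Hspb7 was not called with quantile normalization (adjusted p = 0.18). Among 28 cell cycle genes 2 were called (7.14%, against 8.3% of all genes). The cyclin D1 gene Ccnd1 was higher (338 in IRS1KO and 203 in IRS2KO) and Ccnd2 lower (1570 in IRS1KO and 2071 in IRS2KO), Ccnd2 in 2 of the 12 fits that left out 1 library. The peroxiredoxin gene Prdx6 (2233 in IRS1KO and 2735 in IRS2KO) was the 1 called antioxidant gene of 16 (6.25% called). Rps7 (1540 in IRS1KO and 1911 in IRS2KO) was the 1 called ribosomal protein gene of 44 (2.27% called), and was called in 5 of the 12 such fits. At 1 common total Ccnd2 (adjusted p = 0.101), Prdx6 (0.0734) and Rps7 (0.31) were not called. The 27 genes of the unfolded protein response and integrated stress response and the 19 circadian genes held no call by limma (6 and 3 at an unadjusted p under 0.05) or edgeR, and 0 and 1 by DESeq2.

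**Figure D4:**
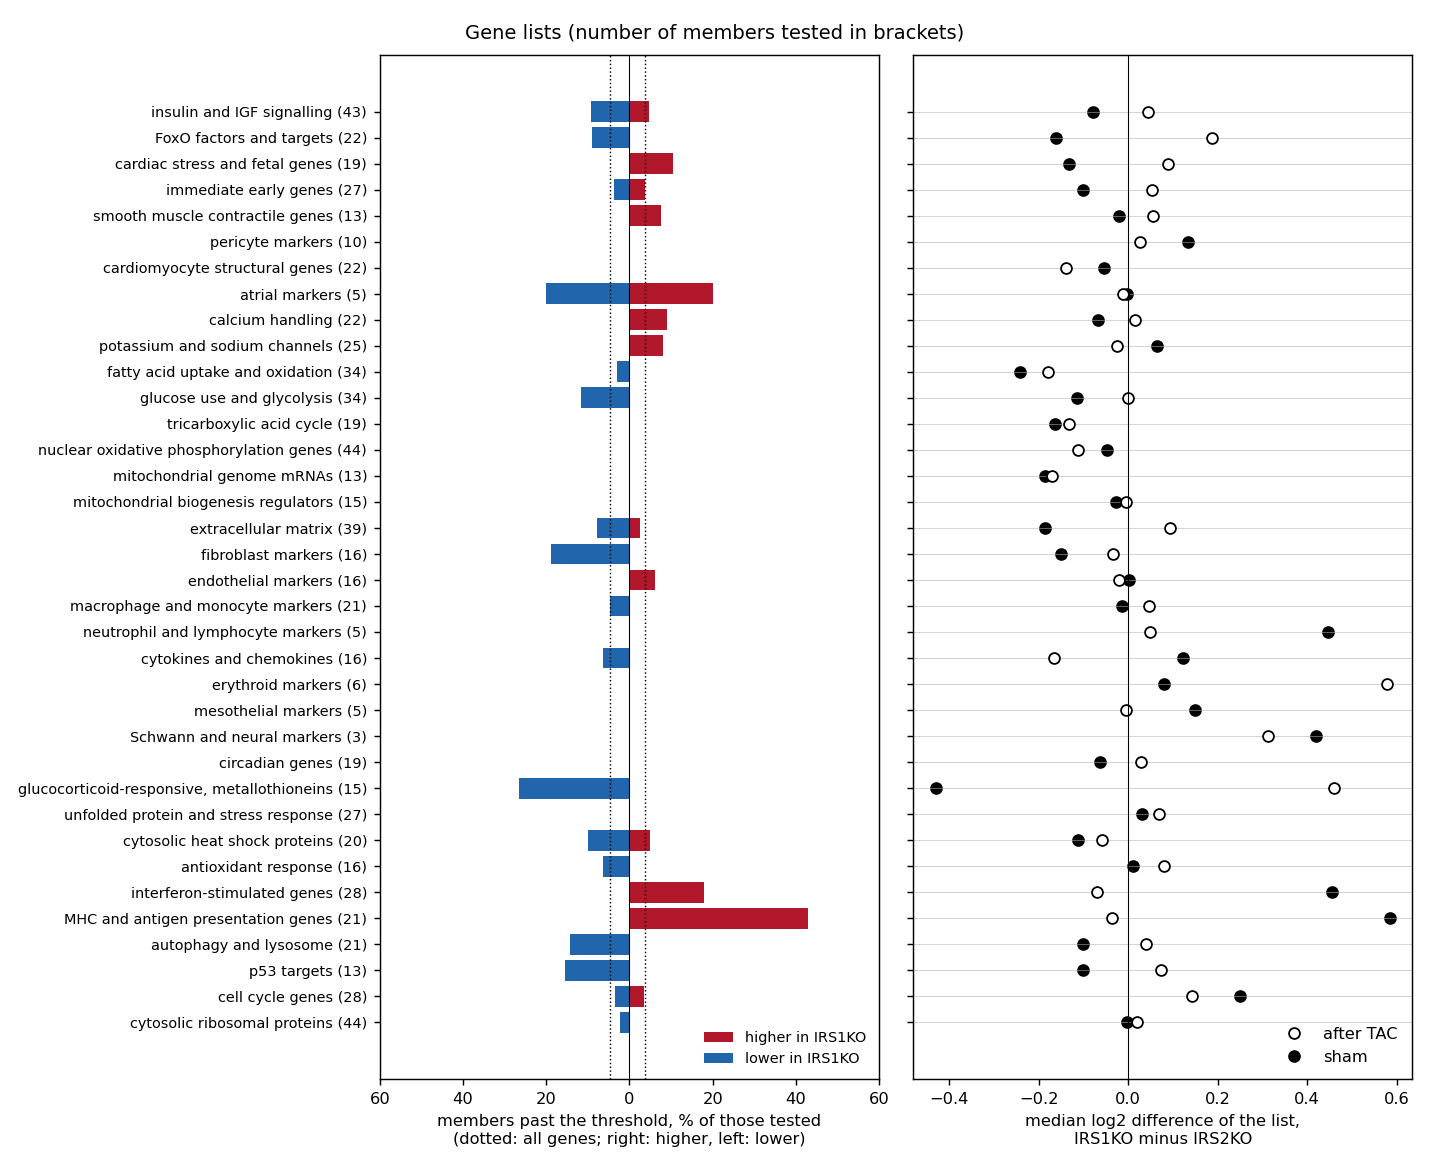
Left, the share of tested members of each gene list that were higher (red, to the right) or lower (blue, to the left) in IRS1KO than in IRS2KO sham hearts, in percent, with dotted lines at the 3.67% and 4.64% of all genes; right, the median log2 difference of each list after TAC (open) and in sham (filled). The MHC list reaches 42.9% higher, and the glucocorticoid list has a median of -0.43 in sham and 0.46 after TAC.

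The largest differences of all lay in genes with little known part in the heart and in copies of ribosomal protein genes. Trim12a, a tripartite motif gene, had 0 reads in all 6 IRS1KO sham libraries, against 138 to 200 normalized counts in IRS2KO libraries, which is at least 298-fold lower when 3 reads over the group are taken as the limit that a count of 0 allows. Nxpe4, a neurexophilin family gene, averaged 7.50 ± 2.95 in IRS1KO and 221 ± 11.5 in IRS2KO hearts, and the adherens junction gene Plekha7 458 ± 54.3 in IRS1KO and 27.1 ± 4.95 in IRS2KO (SD, n = 6 each). WT sham means were 177, 236 and 22.4 for Trim12a, Nxpe4 and Plekha7, each nearer to IRS2KO, with which WT animals share the IRS2-flox allele. The processed pseudogenes Rps3a3 (40.8 in IRS1KO and 1108 in IRS2KO) and Rps3a2 (14.9 in IRS1KO and 334 in IRS2KO) were lower, the pseudogene Rps13-ps1 was higher (321 in IRS1KO and 22.8 in IRS2KO), and the parent gene Rps3a1 was higher at 3689 ± 502 in IRS1KO and 1410 ± 122 in IRS2KO. Reads of such near-identical copies can be assigned to either copy, so these 4 values are uncertain, as is Dynlt1b (48.7 in IRS1KO and 146 in IRS2KO), a member of a cluster of copies.

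Other large rises were Zfp697, a zinc finger gene (210 ± 28.5 in IRS1KO and 40.8 ± 5.68 in IRS2KO hearts), the ephrin receptor gene Ephb1 (206 ± 72.5 in IRS1KO and 41.5 ± 4.55 in IRS2KO), the long noncoding RNA Dubr (124 in IRS1KO and 26.8 in IRS2KO), the lysophospholipid acyltransferase gene Mboat2 (206 ± 17.6 in IRS1KO and 57.9 ± 5.14 in IRS2KO) and Pnmal2 (167 in IRS1KO and 55.2 in IRS2KO). Large falls were the harmonin gene Ush1c (30.7 ± 15.2 in IRS1KO and 165 ± 112 in IRS2KO), the recycling endosome GTPase gene Rab4a (29.1 ± 2.86 in IRS1KO and 127 ± 10.8 in IRS2KO), Tmc7 (46.7 in IRS1KO and 173 in IRS2KO), the ubiquitin ligase gene Lnx1 (51.5 in IRS1KO and 190 in IRS2KO), the proteoglycan gene Spock2 (114 ± 44.0 in IRS1KO and 347 ± 95.9 in IRS2KO) and Prune2 (1455 ± 414 in IRS1KO and 3814 ± 848 in IRS2KO; SD, n = 6 each). Apart from Ush1c, the genes of these rises and falls had IRS1KO and IRS2KO libraries without overlap.

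Within a genotype 3 genes split into separate levels. The aquaporin gene Aqp6 had 2.15, 682, 603, 535, 1.13 and 666 normalized counts in IRS1KO sham libraries, against 0 to 2.41 in IRS2KO libraries, so 4 IRS1KO libraries were high and 2 at the IRS2KO level. BC002163, a processed pseudogene inside Zbtb20, had 947, 693, 20.7, 30.6, 873 and 20.7 in IRS1KO libraries, against 18.1 to 38.5 in IRS2KO libraries, and its call was lost without IRS1KO replicate 1, 2 or 5 (adjusted p up to 0.0661). The potassium channel gene Kcnj14 had 2.26 to 9.69 in IRS1KO libraries, against 12.3, 239, 270, 237, 16.7 and 329 in IRS2KO libraries. The means of these genes describe no single library.

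Called genes lay on all autosomes and chromosome X, from 5.08% of tested genes on chromosome X to 11.7% on chromosome 12, but unevenly within chromosomes. Chromosome 7 held the most, 117 of 1056 (11.1%). Around the targeted genes, 4 of 37 tested genes within 5 Mb of Irs1 (10.8%) and 5 of 42 within 5 Mb of Irs2 (11.9%) were called, where the background was 8.3%. Near Irs1, Rhbdd1, its neighbour, was higher (238 ± 10.8 in IRS1KO and 184 ± 13.3 in IRS2KO hearts), and Psmd1 (1534 in IRS1KO and 1767 in IRS2KO), Cab39 (1748 in IRS1KO and 2088 in IRS2KO) and the predicted Gm29371 were lower. Psmd1 missed the threshold without IRS1KO replicate 3 (adjusted p = 0.0545) or 4 (0.0502), and at 1 common total Psmd1 (0.481) and Cab39 (0.0839) both missed it. Near Irs2, Tubgcp3 (315 ± 12.96 in IRS1KO and 237 ± 27.4 in IRS2KO), the lipid flippase gene Atp11a (1815 ± 228 in IRS1KO and 1281 ± 103 in IRS2KO) and Tmem255b (51.8 in IRS1KO and 26.3 in IRS2KO) were higher, and Kbtbd11 (32.1 in IRS1KO and 55.1 in IRS2KO) and E230013L22Rik were lower. Among windows of 10 Mb with at least 20 tested genes, the highest share was 14 of 27 (51.9%) on chromosome 12 between 20 and 30 Mb, picked after the values were seen. Next came 13 of 44 (29.5%) on chromosome 5 and 16 of 55 (29.1%) on chromosome 7, both between 90 and 100 Mb. Other windows held no call, such as that of 59 genes on chromosome 14 between 30 and 40 Mb.

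The TAC libraries hold the same genotype pair in libraries that the sham comparison did not use. There 323 of 13695 genes passed the threshold (2.36%), 148 higher (1.08%) and 175 lower (1.28%) in IRS1KO TAC than in IRS2KO TAC hearts. Of the 1137 genes called in sham, 877 (77.1%) had the same sign after TAC and 189 (16.6%) were called in the same direction, which is 58.5% of the TAC calls. Cd200, Trp53inp1 and Rlf were called in the opposite direction. Irs1 (log2 -3.81, limma adjusted p = 0.000426), Irs2 (1.48, 0.00948), Nppa (0.93, 0.0154), Casq1 (1.11, 0.00143) and Hspa8 (-0.55, 5.84e-05) were called again. Nppa averaged 19972 ± 2936 in IRS1KO TAC and 11125 ± 3734 in IRS2KO TAC hearts (SD, n = 6 each). No member of the MHC list or the interferon list was called after TAC, where the medians were -0.04 and -0.07 (0 and 1 at an unadjusted p under 0.05, 0 by edgeR or DESeq2), and Nr4a3 (-0.43) and Pdk4 (0.36) were not past the threshold. H2-Aa averaged 579 ± 197 in IRS1KO TAC and 467 ± 306 in IRS2KO TAC hearts. Its difference between operations, -1.26, was not past the threshold (limma adjusted p = 0.18), nor was that of any of the 9 MHC genes called in sham (0.153 to 0.417).

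The difference between operations was tested itself, as the genotype difference after TAC minus that in sham. It passed for 56 genes (0.409%), 36 of them with a positive (0.263%) and 20 with a negative value (0.146%), and for 1566 at an unadjusted p under 0.05. This count rested on single libraries. It was 180 without IRS1KO TAC replicate 5 and 88 without IRS2KO sham replicate 2, and it was 17 to 37 without IRS1KO TAC replicate 1, 2, 3 or 4, IRS1KO sham replicate 1, 2 or 5, IRS2KO TAC replicate 4, 5 or 6 or IRS2KO sham replicate 1, 3, 4, 5 or 6. IRS1KO TAC replicate 5 had the highest Irs1 of its group, at 80.3 normalized counts, and the highest Trim12a, at 78.3 where the other 5 had at most 0.971. Whether these values bear on the count was not tested.

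Acta2, which was among them, had 4889, 6024, 3550, 5972, 5622 and 5586 normalized counts in IRS1KO TAC libraries, against 2941, 3449, 4754, 4891, 4737 and 5739 in IRS2KO TAC libraries, with groups that overlapped. The IRS1KO TAC libraries lay near the IRS1KO sham libraries, whereas every IRS2KO TAC library lay above every IRS2KO sham library. The log2 difference was 0.27 after TAC and 1.81 in sham, and the change between them was -1.54 (SE 0.22, limma adjusted p = 0.000422; 9.29e-05 to 0.00152 when each of 24 libraries was left out). Plekha7 (log2 2.76 after TAC and 4.04 in sham, adjusted p = 0.00268) and Nxpe4 (-3.24 after TAC and -4.79 in sham, 0.000674) kept their direction with a smaller difference after TAC. Trp53inp1 (0.70 after TAC and -0.75 in sham, 0.00963) and the sensory channel regulator gene Pirt (-0.49 after TAC and 0.69 in sham, 0.0183) had opposite signs. These 4 also stayed past the threshold in all 24 fits. Itgb6, an integrin chain (-0.29 after TAC and 1.25 in sham, adjusted p = 0.0216), Ephb1 (0.72 after TAC and 2.22 in sham, 0.0337), Tlr8, a sensor of RNA (0.56 after TAC and -1.17 in sham, 0.0384), Fam117b (0.71 after TAC and -0.86 in sham, 0.0443) and Rasgef1b (0.61 after TAC and -0.86 in sham, 0.0289) passed with all libraries and missed the threshold in 1, 8, 16, 18 and 7 of the 24 fits. The sham call of Fam117b itself was lost in 6 of the 12 fits that left out 1 sham library and at 1 common total (adjusted p = 0.0651).

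**Figure D5:**
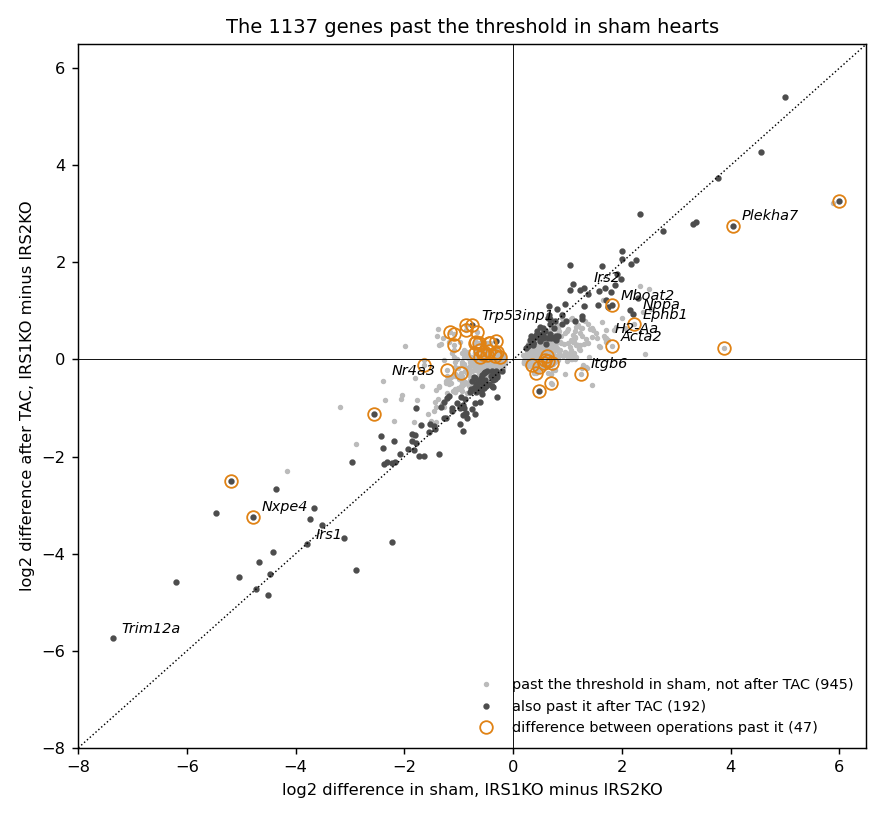
Each point is 1 of the 1137 genes called in sham hearts, with the log2 difference, IRS1KO minus IRS2KO, in sham on the x axis and after TAC on the y axis; dark points (192) are also called after TAC, orange rings (47) mark genes whose difference between operations passed the threshold, and the dotted line marks equal values. Irs1 lies near the line, while Acta2 and H2-Aa lie at 0.27 and 0.43 on the y axis, below it; the difference between operations passed for Acta2 and not for H2-Aa.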

How the data were processed

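Messenger RNA of heart apex was sequenced in 35 libraries with a TruSeq stranded mRNA kit (per the labels' protocols). For 27012 genes the authors deposited normalized counts, a signal made of reads over 1 factor per library, per the file headers and values. The submitters' processing notes name HISAT2 2.0.6, HTSeq 0.7.1, DESeq2 and the build GRCm38; the annotation release and strand setting are not given in the sources used here. Within 0.001, 100% of values were whole multiples of 1 read, so reads could be recovered (11742562 to 13746724 in the 12 sham libraries compared). No pair of libraries agreed within sampling noise. Symbols came from GENCODE vM21, which held 26904 identifiers.

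limma 3.58.1 in R 4.3.3 (trend and robust) was run on log2(value + 1) for genes with a mean of at least 10 over all 35 libraries, with 6 group means in 1 model. edgeR and DESeq2 used the same group means, so they too took the spread from sham and TAC libraries together. Tests were two-sided, p-values were Benjamini-Hochberg adjusted over 13695 genes, and called means an adjusted p under 0.05. The log2 difference understates changes of low genes. SD is over the 6 libraries of a group, and SE is that of the limma contrast. No set test was run on the lists. Other settings tried were a pseudocount of 0.5 or 5, the filter dropped or raised to 50, scaling to 1 common total or by quantiles, fits of fewer groups, weights for libraries, a block for the replicate number, recovered reads in edgeR 4.0.16 and in DESeq2 1.42.0, and each library left out in turn. The steps were tested on simulated data.

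Named genes were Irs1, Irs2, Nppa, Acta2 and Nr4a3, the 15 largest rises and falls among genes averaging 100 or more in the higher group, up to 6 called members of each list (2 where none was called), 4 lists in full, called genes within 5 Mb of Irs1 or Irs2, and the 5 largest differences between operations in each direction, leaving out predicted names. Not every gene of the rule is given, and some called list members are counted but not reported here. The comparison, lists and rule were chosen with earlier results of these data known.

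Strand use in counting is not stated, so reads of a gene and an antisense partner cannot be told apart, as for Psmb9 and Tap1, Ciita and Dexi, or Nxpe4 and Nxpe2. Rab4a and Dpep1 share bases with the readthrough gene Gm20388 and Rps3a3 lies inside Pde4d. Promoters were found for 7 of 9 genes looked for, and that of H2-DMa is not shown.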

Additional observations from a re-analysis of the deposited data

Results flagged for a closer look

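Single libraries stood apart from the other 5 of their group in 23 of the 234 groups of 6 values looked at, by a gap that Dixon's test at 95% counts as too wide, where chance marks about 1 in 20. Genes that vary together are flagged together, so the 23 are not separate events and 1 in 20 is no strict yardstick for them. In IRS1KO sham hearts 10 of these were replicate 5. It was the highest for H2-Aa (1769 normalized counts), H2-Ab1 (1124), H2-Eb1 (1442), H2-DMa (156), H2-DMb1 (141), Cd74 (3069), the class I genes H2-K1 (3921) and B2m (6034) and the GTPase gene Igtp (1442), and the lowest for Arc (22.6). In the same group Mx2 was highest in replicate 1 (64.6), Mtor (830.5) and Pdpk1 (514) were lowest there, and in replicate 3 Tubgcp3 was highest (341) and Akt1 lowest (2172). Tlr8 stood apart in IRS1KO sham replicate 3 (26.9). In IRS2KO sham hearts Fos (71.3) and Pdpk1 (717) stood apart in replicate 1, Dynlt1b (79.8) in replicate 2, Gbe1 (856) and Hsph1 (556) in replicate 3, Mx2 (26.9) in replicate 5 and Igf1r (495) in replicate 6.

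The IRS1KO minus IRS2KO difference itself differed between operations, by limma's test of the difference, for 12 of the genes named. The change on the log2 scale, TAC minus sham, was -1.54 for Acta2, -1.55 for Itgb6, -1.50 for Ephb1, -1.29 for Plekha7, -1.18 for Pirt and -0.70 for Mboat2. It was 1.73 for Tlr8, 1.58 for Fam117b, 1.55 for Nxpe4, 1.47 for Rasgef1b, 1.46 for Trp53inp1 and 0.66 for Gabarapl1. The calls of Mboat2 and Gabarapl1 were lost in 19 and 17 of the 24 fits that left out 1 library.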

How the results depend on the processing

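Counts of called genes in sham hearts were 502 higher and 635 lower. They became 780 and 318 with the same total per library, 922 and 1226 with only the 12 libraries, 1044 and 1452 with the 3 sham groups, and 1166 and 1409 with library weights. Leaving out 1 library gave 374 to 458 higher and 468 to 572 lower. edgeR called 557 and 496, DESeq2 544 and 665. After TAC, 148 and 175 became 238 higher with the same total, and 64 and 76 with only the 12 TAC libraries; leaving out 1 library gave 115 to 180 and 142 to 248. The 56 differences between operations became 26 with no filter, 25 with the same total, 34 with quantile normalization, 21 with only the 4 groups, 138 with library weights, 157 with DESeq2, and 17 to 180 without 1 library. The causes were not tested. With the replicate number as a block 603 and 726 genes were called; same-numbered IRS1KO and IRS2KO sham libraries deviated together with correlations of 0.0683 to 0.35, 5 of 6 correlating best with their own number, and no label says what a number marks. Depth limits genes near the mean of 10, and none of the 96 named genes called in sham changed sign under any setting run. Of those not called, B2m, Akt2, Slc2a4, Myh11, Igf1r and Pik3ca changed sign under at least 1 setting.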
